A study of Mus musculus with 4 samples.

Results

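The genes described here are commonly read as p53 targets: Cdkn1a, Mdm2, Ccng1, Sesn1, Bax, Phlda3, Trp53inp1, Eda2r, Psrc1 and Gtse1. They were taken by symbol from a table of 54752 gene identifiers, and all 10 were found and passed the filter on low counts, among 15283 genes tested. The libraries came from mouse heart tissue, labelled P14 (postnatal day 14), with 2 libraries labelled wild type and 2 labelled Carm1 mutant. The series text calls the hearts neonatal. The sources used here name no mutant allele, Cre driver or strain and do not say whether each library is a separate animal, so a p-value reflects only how far these 4 libraries scatter, which may be technical. Carm1 encodes an arginine methyltransferase that acts on histones and on coactivators of transcription.

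The transcription factor p53, encoded in the mouse by Trp53, is held low by the ubiquitin ligase Mdm2 and accumulates after DNA damage and other stress. It binds DNA as a tetramer, at a pair of half-sites of 10 bases each, and raises genes that stop the cell cycle, repair DNA, restrain growth signalling or start apoptosis. Carm1, together with Prmt1 and the acetyltransferase p300 (Ep300), is known as a coactivator of p53 on chromatin. Many mitotic genes are lowered when p53 is active, indirectly, through the kinase inhibitor encoded by Cdkn1a and the DREAM repressor complex. In the heart, cell cycle inhibitors of this kind are studied because cardiomyocytes leave the cell cycle soon after birth.

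All of these genes are described as raised by p53, and Psrc1 and Gtse1 also act in mitosis, so the sequence near the starts of transcription is shown first. RefSeq promoter windows of 300 bases (GRCm38.p6, 250 before and 50 after a start) were held for 9 of the 10 members, in 13 windows; the member without an entry was Trp53inp1. Both strands were searched for the p53 consensus, a pair of abutting half-sites of 10 bases, with at most 1 mismatch and with the central C and G of each half-site kept. Such a match stood in a window of 3 members, Cdkn1a, Ccng1 and Gtse1. Over all genes with a window, 22 of 27025 held one, which is 0.0814%. Each sequence below is 30 bases, 5′ to 3′ on the strand of the gene, with the match in capitals.

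Cdkn1a p53 consensus (chr17:29090923-29090952, plus strand): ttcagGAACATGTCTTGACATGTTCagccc
Ccng1 p53 consensus (chr11:40755457-40755486, minus strand): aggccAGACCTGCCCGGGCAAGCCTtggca
Gtse1 p53 consensus (chr15:85859940-85859969, plus strand): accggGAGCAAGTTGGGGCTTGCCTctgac

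Each of the 3 matches had 1 mismatch, and none was left when no mismatch was allowed. The Cdkn1a match began 51 bases before the upstream of its 2 RefSeq starts, at position 29090979 of chromosome 17, and the Ccng1 match 195 bases before its start at 40755286 of chromosome 11. The Gtse1 match lay across the downstream of its 2 starts, at 85859946 of chromosome 15. Single half-sites without a mismatch also stood in windows of Mdm2, Sesn1 and Bax. In Cdkn1a, Ccng1 and Gtse1 a half-site of the full match was without a mismatch too, and Cdkn1a held another outside it. Over all genes with a window, 9.55% held such a half-site, so it says little about any gene. The windows reach only 250 bases before a start, and more distant or intronic sequence was not searched.

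The second search was for the cell cycle genes homology region (CHR), the element by which DREAM and its MuvB core contact mitotic promoters. Its canonical letters TTTGAA, read on both strands, were found in a window of 1 member, Bax, where the match overlapped the single p53 half-site, and in 20.2% of all genes with a window. The variants TTCGAA and TTTAAA were added after the sequences had been seen. Psrc1 held TTCGAA, which 1.8% of genes with a window hold, and Gtse1 and Mdm2 held TTTAAA, which 14.9% hold. The stretches around them in the pair of mitotic members are printed because these are the members that rose.

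Psrc1 CHR variant (chr3:108383796-108383825, plus strand): gagcctaagaaaTTCGAAcgaagctccgcc
Gtse1 CHR variant (chr15:85859683-85859712, plus strand): gagcgtctcctgTTTAAAcaggccaatcgg

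The Psrc1 match began 30 bases before the downstream of its 2 RefSeq starts, at 108383838 of chromosome 3, and at base 5 counted from the upstream one as base 1, and the Gtse1 match shown 12 bases before the start at 85859707 of chromosome 15. A second TTTAAA in Gtse1, at 85859737 to 85859742, began at base 31 counted from that start as base 1. GGCGG, the letters of the CDE-like element often found beside a CHR, occurred in 51.2% of genes with a window, and in every member with a window except Ccng1. A match is a description of the letters, and binding was not measured here.

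Library totals ran from 11677604 to 22217442 counts, the smallest being the mutant-labelled replicate 2, where a floor of 3 counts corresponds to 0.257 CPM, the library's counts scaled to a common total, before TMM scaling. Values are CPM after TMM scaling unless stated, with the SD of 2 libraries after ±. Of the genes tested with edgeR's quasi-likelihood test at a Benjamini-Hochberg adjusted p (FDR) below 0.05, 2.79% passed as higher in the mutant-labelled libraries and 4.58% as lower. Without TMM factors, on library totals alone, the shares were 7.78% and 1.35% and the median gene moved by 0.39 on the log2 scale, and members close to 0 are given on both scales. Carm1 itself had 45.9 and 52.4 CPM in wild type against 35.8 and 31.8 CPM in the mutant-labelled libraries (log2 fold change −0.54, SE 0.19, edgeR FDR 0.114, and 0.279 with the replicate number as a block). Leaving out 1 library at a time gave log2 fold changes of −0.64 to −0.47 for Carm1. Counts summed over all exons of Carm1 cannot tell whether some were deleted. Xist had 12 and 15 counts in wild type against 8116 and 3921, and Ddx3y, on the Y chromosome, 575 and 741 against 1 and 0, so genotype label and sex cannot be told apart. All 7 cardiomyocyte markers on the list passed the filter (1, Pln, was called lower), and their summed level was 64520 to 74230 CPM in wild type and 37630 to 40560 CPM in the mutant-labelled libraries. The 6 fibroblast markers summed to higher levels, 3023 to 3556 against 5050 to 5256 CPM, and the 6 endothelial markers to 921 to 1217 against 1365 to 1571 CPM. In each of these lists 0 markers were called. The log2 fold changes ran from 0.30 (Pdgfra) to 0.94 (Col1a1) for fibroblast and from 0.17 (Tek) to 0.72 (Cdh5) for endothelial markers. In whole tissue, fewer cells of a type and less RNA per cell cannot be told apart, and the part of cell makeup in the results below was not tested.

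The members spanned a wide range of levels in the wild-type heart. Per kilobase of exon, which allows genes to be compared, Ccng1 had the highest level, 117 and 102 CPM per kilobase, followed by Cdkn1a with 56.7 and 54.6. Sesn1 (24.4 and 23.8), Phlda3 (21.9 and 14.9), Bax (12.2 and 10.5) and Mdm2 (9.16 and 8.91) came next. Trp53inp1 had 1.38 and 2.95, Gtse1 0.667 and 0.726, Eda2r 0.466 and 0.416, and Psrc1 0.187 and 0.182 CPM per kilobase. No neighbours in this order overlapped in their wild-type values, although with 2 libraries a range is a weak measure of spread. In the mutant-labelled libraries the gap at the top was nearly gone, with 50.9 and 56.6 CPM per kilobase for Ccng1 and 48.8 and 38.6 for Cdkn1a. Phlda3, Bax and Sesn1 could not be ordered there because their ranges overlapped, and Psrc1 stood above Eda2r. With the longest transcript as the length, Cdkn1a and not Ccng1 had the higher mutant-labelled mean.

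**Figure D1:**
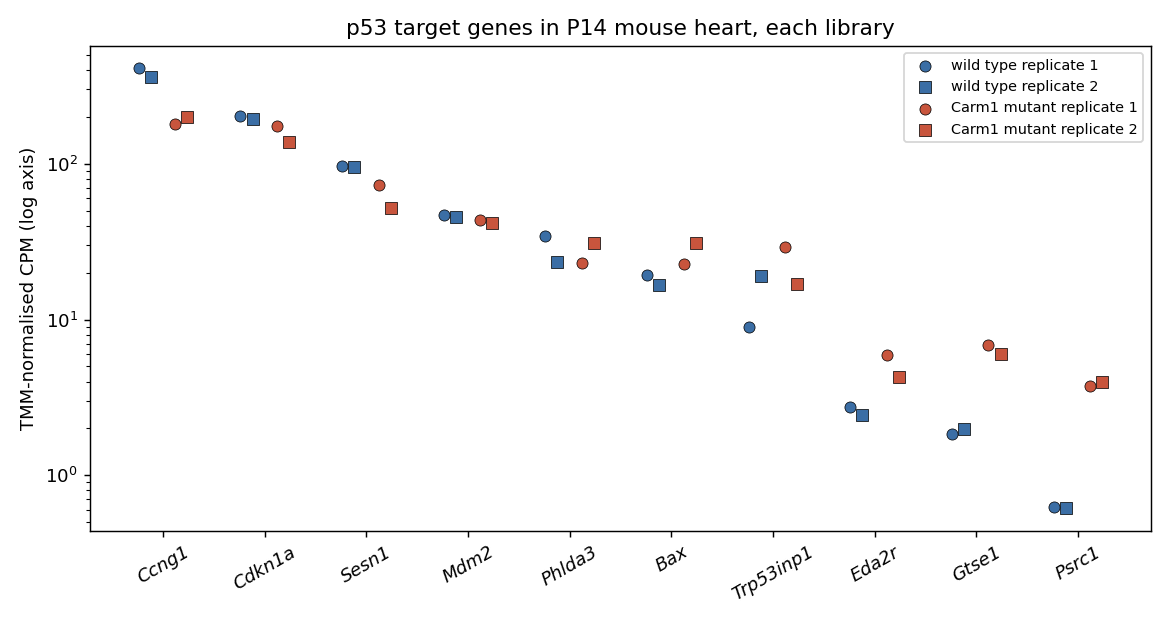
TMM-normalised CPM (log axis) of the 10 p53 target genes in each of 4 libraries, ordered by wild-type mean, with wild type in blue and mutant-labelled in red. The mutant-labelled points lie well below wild type for Ccng1 and well above for Gtse1 and Psrc1, and the groups overlap for Phlda3 and Trp53inp1.

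Among members that stop the cell cycle or feed back on p53, Ccng1 fell to a 2.04-fold lower level, while the values of Cdkn1a and Mdm2 did not pass the test. Ccng1 encodes cyclin G1, which recruits a phosphatase to Mdm2, and lies at chr11:40748552-40755311 (ENSMUSG00000020326, minus strand; gene positions are those of GENCODE M21 on GRCm38). Its counts were 7188 and 6992 in wild type against 4482 and 2700 in the mutant-labelled libraries, or 411 and 357 against 179 and 199 CPM. Both mutant-labelled values were below both wild-type values by a margin larger than the difference within either group. The log2 fold change was −1.02 (SE 0.21, 95% interval −1.51 to −0.54, edgeR FDR 0.0304), with means of 384 ± 38 and 189 ± 14 CPM. The direction was the same under each of the 18 alternatives, but the call was not: the edgeR FDR was 0.0707 with library totals alone, 0.421 without mutant-labelled replicate 1 and 0.29 without mutant-labelled replicate 2, and 0.0537 with the replicate number as a block.

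Cdkn1a encodes the inhibitor of cyclin-dependent kinases through which p53 arrests cells (chr17:29090976-29100727, ENSMUSG00000023067, plus strand). It had 201 and 194 CPM in wild type against 173 and 137 CPM in the mutant-labelled libraries. The mutant-labelled values were lower and more spread out, with a log2 fold change of −0.35 (SE 0.21, 95% interval −0.83 to 0.14, edgeR FDR 0.318). On the scale of library totals alone the groups overlapped, at 162 and 183 against 196 and 159 CPM, and the log2 fold change was 0.04. The interval thus runs from 0.561-fold to 1.10-fold of wild type, which leaves a decrease as large as that of Sesn1 within it. A ratio of 2 genes within a library does not depend on the scaling, and the counts of Cdkn1a per count of Ccng1 were 0.490 and 0.543 in wild type against 0.969 and 0.689 in the mutant-labelled libraries. The ratio was higher in both mutant-labelled libraries, and with 2 libraries a side the smallest p of an exact permutation test is 0.333, two-sided. The antisense gene model AC167363.2 shares 273 exon bases with Cdkn1a and had 7, 22, 21 and 2 counts, against 1861 or more for Cdkn1a in every library. Reads of this pair cannot be told apart if strand was not used in counting.

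Mdm2, the ligase that marks p53 for degradation and is itself raised by p53, showed little spread within or between groups (chr10:117688875-117710758, ENSMUSG00000020184, minus strand). It had 46.5 and 45.3 CPM in wild type against 43.2 and 41.9 CPM in the mutant-labelled libraries. The groups did not overlap but lay within a narrow band, and the log2 fold change was −0.11 (SE 0.18, edgeR FDR 0.728). The 95% interval of the fold ran from 0.698 to 1.23, so changes of up to about that size in either direction remain possible. With library totals alone the order turned, at 37.5 and 42.7 against 48.8 and 48.7 CPM, with a log2 fold change of 0.28 (edgeR FDR 0.318).

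Sesn1 encodes sestrin 1, which restrains mTORC1 signalling and takes part in the response to oxidative stress (chr10:41809935-41908424, ENSMUSG00000038332, plus strand). Its values were 97.1 and 94.7 CPM in wild type against 73.1 and 52.2 CPM in the mutant-labelled libraries. The wild-type libraries were nearly equal, and both mutant-labelled libraries were lower, replicate 2 the more so. The log2 fold change of −0.61 (SE 0.22, 95% interval −1.12 to −0.11) had an edgeR FDR of 0.12 and was not called. It was −0.66 without wild type replicate 2 and −0.60 without wild type replicate 1. The estimate moved from −0.40 without mutant-labelled replicate 2 to −0.88 without mutant-labelled replicate 1.

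The members tied to cell death gave positive fold changes with one exception, and none was called. Bax encodes the protein that permeabilises the outer mitochondrial membrane in apoptosis (chr7:45461697-45466898, ENSMUSG00000003873, minus strand). It had 19.3 and 16.5 CPM in wild type against 22.7 and 30.8 CPM in the mutant-labelled libraries. Both mutant-labelled libraries were above wild type, replicate 1 only slightly, and the log2 fold change was 0.57 (SE 0.22, 95% interval 0.07 to 1.08, edgeR FDR 0.139). With library totals alone Bax was called (log2 fold change 0.98, edgeR FDR 0.0455), and without mutant-labelled replicate 2 the estimate was 0.33. The gene model Gm45808 shares 192 exon bases with Bax and had 0 counts in every library. How reads over shared bases were assigned is unknown here.

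Eda2r, a receptor of the tumour necrosis factor receptor family that binds ectodysplasin A2, lies on the X chromosome (chrX:97333840-97377216, ENSMUSG00000034457, minus strand). It had 48 and 48 counts in wild type against 149 and 58 in the mutant-labelled libraries, or 2.75 and 2.45 against 5.94 and 4.27 CPM. Both mutant-labelled values exceeded both wild-type values, about 1.98-fold on average (log2 fold change 0.99, SE 0.30, 95% interval 0.30 to 1.68, edgeR FDR 0.0818). Eda2r was called under 5 alternatives, among them library totals alone (edgeR FDR 0.0401) and offsets for transcript length and GC content (edgeR FDR 0.0424). The 5 include the looser threshold of 0.10, which leaves the fit unchanged, and a replicate block with numbers crossed, chosen after seeing the data. The gene is X-linked and the groups differ in sex, so sex and genotype label cannot be told apart here either. Its ligand gene Eda, also on the X chromosome and under the same limit, had a log2 fold change of 0.65 (edgeR FDR 0.137).

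Trp53inp1, which encodes a stress protein of autophagy and p53-dependent cell death, varied most between libraries of a group (chr4:11156431-11174379, ENSMUSG00000028211, plus strand). It had 8.92 and 19.1 CPM in wild type against 29.1 and 16.9 CPM in the mutant-labelled libraries. The groups overlapped, and the log2 fold change of 0.72 (SE 0.38, edgeR FDR 0.261) was smaller than that spread allows to be called. Leaving out wild type replicate 2 made it 1.35 and leaving out wild type replicate 1 made it 0.27. The size of the estimate thus depended on which wild-type library was kept. Without mutant-labelled replicate 1 it was 0.26 and without mutant-labelled replicate 2 it was 1.04. Trp53inp1 has the longest exon sequence of the members, 6475 bases over all its transcripts, and the longest single transcript, 5432 bases. Across genes, which are not independent replicates, the deviation of wild type replicate 1 from the mean of all libraries fell with transcript length (Spearman's rho −0.34, against −0.003 to 0.27 in the other libraries). With offsets for length and GC content the log2 fold change was 0.67 (edgeR FDR 0.13). The part of transcript length in the low value of wild type replicate 1 was not tested.

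Phlda3, whose protein competes with the kinase Akt for membrane lipids, did not separate the groups (chr1:135766119-135769136, ENSMUSG00000041801, plus strand). It had 34.1 and 23.3 CPM in wild type against 22.9 and 30.8 CPM in the mutant-labelled libraries. Each group held 1 higher and 1 lower library, and the log2 fold change was −0.10 (SE 0.25, 95% interval −0.67 to 0.47, edgeR FDR 0.827). The sign turned with library totals alone (0.32), without wild type replicate 1 (0.18) and without mutant-labelled replicate 1 (0.10).

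The mitotic members Psrc1 and Gtse1 rose, and they were the members whose call held under all 18 alternatives. Psrc1 encodes a microtubule-associated protein of the mitotic spindle and was described in the mouse as a gene that p53 raises (chr3:108383839-108388231, ENSMUSG00000068744, plus strand). It had 11 and 12 counts in wild type against 94 and 54 in the mutant-labelled libraries, or 0.629 and 0.613 against 3.75 and 3.98 CPM. The replicates of each group were close and the groups far apart, with a 6.16-fold higher level (log2 fold change 2.62, SE 0.36, 95% interval 1.78 to 3.46, edgeR FDR 0.0120). Only 0.600% of all tested genes had a log2 fold change at or above it. The longest Psrc1 transcript holds a stretch of at most 136 of 2020 bases that aligned at 90% identity or more to transcripts of 143 other genes, so part of these low counts could come from copies of that stretch.

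Gtse1 encodes a microtubule-bound protein of the G2 and S phases that was likewise described in the mouse as raised by p53 and that moves p53 out of the nucleus (chr15:85859745-85876573, ENSMUSG00000022385, plus strand). Its counts were 32 and 39 in wild type against 172 and 81 in the mutant-labelled libraries, or 1.83 and 1.99 against 6.86 and 5.96 CPM. Both mutant-labelled libraries were about 3.36-fold above wild type, and the groups were well apart (log2 fold change 1.75, SE 0.28, 95% interval 1.10 to 2.39, edgeR FDR 0.0175). Leaving out a library gave values from 1.63 to 1.83, with edgeR FDR of at most 0.0467. No transcript of another gene aligned to Gtse1 over 100 bases or more at 90% identity.

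**Figure D2:**
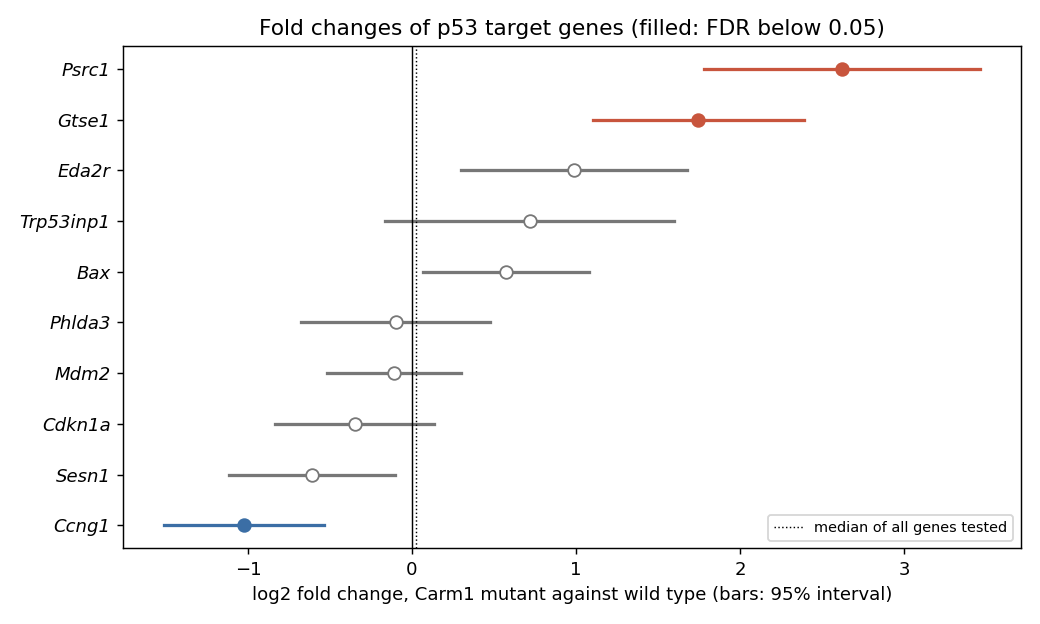
Log2 fold change of each p53 target gene, mutant-labelled against wild type, with the 95% interval of the edgeR fit as bars and filled points for genes with an FDR below 0.05. Psrc1 (2.62) and Gtse1 (1.75) are the filled points on the right and Ccng1 (−1.02) the one on the left, and the intervals of Mdm2, Phlda3, Cdkn1a and Trp53inp1 include 0.

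Of the 10 members, 2 were called higher (20%, against 2.79% of all genes tested), 1 was called lower (10%, against 4.58%) and 7 were not called. Their median log2 fold change was 0.24, against 0.02 over all genes tested. The groups did not overlap, with the mutant-labelled side higher, in 4 members (Bax, Eda2r, Psrc1 and Gtse1), where 30.3% of all tested genes did the same. In 4 members it was lower (Cdkn1a, Mdm2, Ccng1 and Sesn1), where 28.7% of all tested genes did the same. At an unadjusted p under 0.05, 4 members were higher (Psrc1, Gtse1, Bax and Eda2r) and 2 lower (Ccng1 and Sesn1). The share of all tested genes at that cut was not computed, here or for the lists below, so these counts cannot be set against it. At an edgeR FDR below 0.10, 3 members were higher and 1 lower, where 7.05% and 9.23% of all genes were. DESeq2's Wald test also called 2 members higher and 1 lower, and called 3.87% and 7.29% of all genes. With limma-voom the member counts were the same, and the shares of all genes were 2.79% and 4.59%. Without wild type replicate 2 the calls were 3 higher and 2 lower, in a fit that called 16% of all genes higher and 19.5% lower. Without mutant-labelled replicate 1 or 2 they were 2 higher and 0 lower, in fits that called 1.52% or 1.40% of all genes higher and 1.15% or 0.987% lower.

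**Figure D3:**
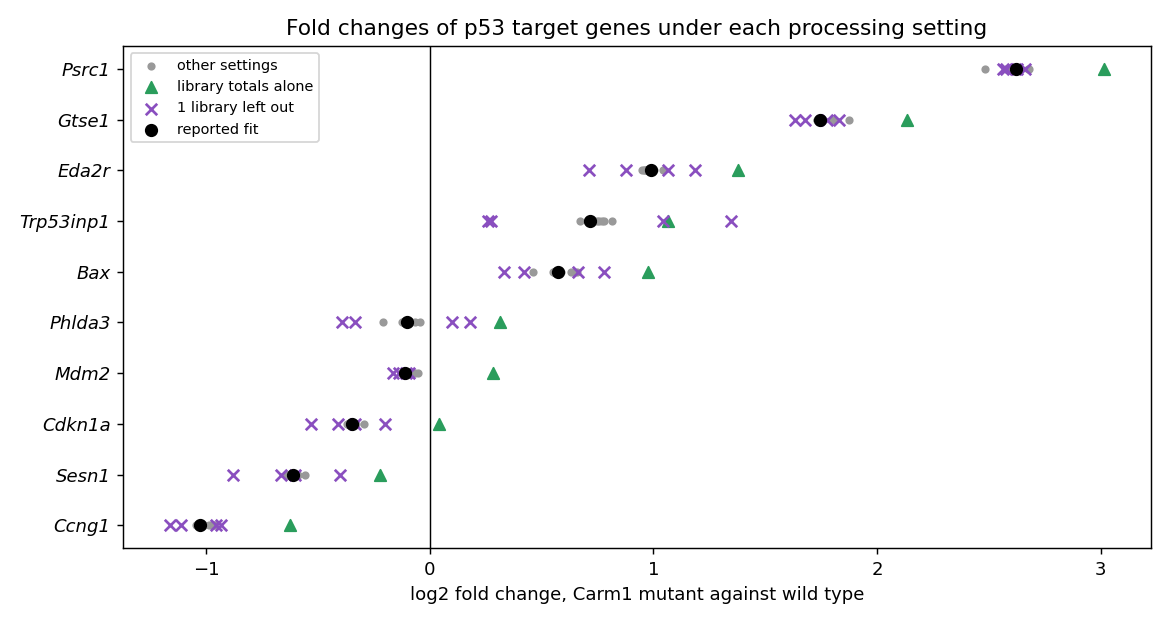
Log2 fold change of each p53 target gene in the reported fit (black), with library totals alone (green triangles), with 1 library left out (purple crosses) and under the other settings (grey). Psrc1 and Gtse1 stay above 1.6 and Ccng1 below −0.62 throughout, whereas Phlda3, Mdm2 and Cdkn1a cross 0 in at least 1 setting.

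Other targets that p53 is known to raise, from 4 lists with 41 tested genes of 44, moved in both directions. Of them 4 were called higher (9.76%, against 2.79% of all genes tested), 5 lower (12.2%, against 4.58%) and 32 not called, with a median log2 fold change of 0.09 against 0.02 over all genes. Without wild type replicate 1 the calls were 7 higher and 6 lower, where 5.52% and 8.76% of all genes were called. Without wild type replicate 2 they were 10 and 8, where 16% and 19.5% of all genes were called, so the share of lower calls was that of the background. Without mutant-labelled replicate 1 or 2 fewer of these targets were called, in fits that also called smaller shares of all genes, given above. Their median log2 fold change was then 0.09 or 0.11, against 0.01 over all genes in either fit.

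In the cell death list, 2 of 10 tested genes rose (20%, against 2.79% of all genes tested) and 1 fell (10%, against 4.58%). Tnfrsf10b, a death receptor for the ligand TRAIL, had 2.35 and 2.35 CPM in wild type against 10.6 and 7.44 CPM in the mutant-labelled libraries (log2 fold change 1.95, SE 0.28, edgeR FDR 0.0139). Bbc3, which encodes the BH3-only protein PUMA, rose, with means of 4.67 ± 0.83 and 10.1 ± 1.7 CPM (log2 fold change 1.12, edgeR FDR 0.0401). Perp, a membrane protein of desmosomes that also takes part in p53-dependent death, fell, with means of 188 ± 34 and 98.8 ± 10.2 CPM (log2 fold change −0.93, edgeR FDR 0.0439). The last pair lost the call without mutant-labelled replicate 1 (edgeR FDR 0.309 for Bbc3 and 0.477 for Perp) and without mutant-labelled replicate 2 (0.0702 and 0.287). Perp also missed the threshold with library totals alone (edgeR FDR 0.112), upper-quartile factors (0.0566) and the replicate block (0.0707), and Bbc3 with counts thinned to the smallest library (0.0563).

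Metabolic and stress targets held the largest log2 fold change in each direction among the p53 pathway lists. Of 16 tested genes, 1 was called higher (6.25%, against 2.79% of all genes tested) and 4 lower (25%, against 4.58%). Gdf15, a secreted stress cytokine raised by several stress pathways besides p53, had 75 and 66 counts in wild type against 989 and 656 in the mutant-labelled libraries, an 11.5-fold higher level (log2 fold change 3.52, SE 0.24, edgeR FDR 8.61e-04). Lpin1, a phosphatidate phosphatase and coactivator of fatty acid oxidation genes, fell, with means of 169 ± 17 and 50.7 ± 6.2 CPM (log2 fold change −1.73, SE 0.21, edgeR FDR 0.00847). Acad11, an acyl-CoA dehydrogenase, fell by 1.34 on the log2 scale (edgeR FDR 0.0127), and Pank1, a pantothenate kinase of coenzyme A synthesis, by 1.31 (edgeR FDR 0.0139). Without mutant-labelled replicate 1 the edgeR FDR was 0.105 for Acad11 and 0.0865 for Pank1. The other lower gene, Aldh4a1, a mitochondrial enzyme of proline breakdown named here after its value was seen, fell by 0.98 (edgeR FDR 0.0316); its FDR was 0.106 with library totals alone, and 0.345 and 0.136 without mutant-labelled replicates 1 and 2. The sum of cardiomyocyte markers was lower in the same libraries, as given above, and its part in these decreases was not tested.

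The growth arrest list had 1 gene called higher of 7 tested (14.3%, against 2.79% of all genes tested) and 0 lower, where 4.58% of all genes were. Ptprv, a receptor-like phosphatase, had 7 and 15 counts in wild type against 81 and 54 in the mutant-labelled libraries (log2 fold change 2.59, SE 0.43, edgeR FDR 0.0195). Among 8 DNA repair targets edgeR, DESeq2 and limma-voom each called 0, and 1, Rrm2b, had an unadjusted p under 0.05. The most abundant of the list were Pcna, the sliding clamp of DNA polymerases, with 28.6 and 22.1 against 25.7 and 28.3 CPM, and the excision nuclease Ercc5, with 20.4 and 20.8 against 22.3 and 20.03 CPM. Both groups overlapped in both genes.

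Upstream of the targets, Trp53 had 32.7 and 30.03 CPM in wild type against 52.2 and 50.9 CPM in the mutant-labelled libraries. The groups were well separated (log2 fold change 0.72, SE 0.18, 95% interval 0.30 to 1.14), but the edgeR FDR of 0.0524 just missed the threshold. It was called under 11 of the 18 alternatives, DESeq2's Wald test among them (adjusted p 0.0347). The fits without wild type replicate 1 (log2 fold change 0.77) or 2 (0.62) were also among them. Those fits called larger shares of all genes, as given above. The count of 11 includes the looser threshold of 0.10, where the fit is unchanged, and a replicate block with numbers crossed, chosen after seeing the data. Trp53 did not pass without mutant-labelled replicate 1 (log2 fold change 0.70) or 2 (0.73) or with the replicate block (edgeR FDR 0.124). Across the alternatives the estimates ran from 0.62 to 1.11. Trp53 was named outside the rule, as the gene the set is built on. Of the 13 tested genes of the p53 family and its regulators edgeR called 0, where it called 2.79% of all genes higher and 4.58% lower. At an unadjusted p under 0.05, 3 were higher (Trp53, Mdm4 and Chek2) and 1 lower (Cop1). DESeq2 called 1 higher, where it called 3.87% of all genes higher, and limma-voom called 0. Mdm4, the partner of Mdm2 that blocks p53 activity, had 22.1 and 50.7 CPM in wild type against 68.8 and 62.2 CPM in the mutant-labelled libraries (log2 fold change 0.85, edgeR FDR 0.162). The value of wild type replicate 1 was far below that of replicate 2. The log2 fold change of Mdm4 was 0.36 without the former and 1.53 without the latter. It was 0.77 and 0.91 without mutant-labelled replicates 1 and 2. Usp7, which removes ubiquitin from Mdm2 and p53, had a log2 fold change of 0.32 (edgeR FDR 0.304).

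Coactivators and modifiers of p53, Carm1 included, gave 0 calls of 9 with edgeR and limma-voom and 1 lower with DESeq2. Over all genes tested, edgeR called 2.79% higher and 4.58% lower, and DESeq2 3.87% and 7.29%. At an unadjusted p under 0.05, 2 genes of the list were lower, Carm1 and Kat2b. Kat2b, an acetyltransferase, had 73.4 and 74.5 CPM in wild type against 47.8 and 46.0 CPM in the mutant-labelled libraries (log2 fold change −0.66, SE 0.18, edgeR FDR 0.0660, and 0.186 with the replicate block). Leaving out 1 library at a time gave log2 fold changes of −0.69 to −0.64. Prmt1, the main asymmetric arginine methyltransferase, had 84.8 and 54.1 against 54.0 and 58.9 CPM (log2 fold change −0.30, edgeR FDR 0.464). Its sign turned with library totals alone (0.12) and without wild type replicate 1 (0.05), while without wild type replicate 2 the log2 fold change was −0.63. Without mutant-labelled replicates 1 and 2 the log2 fold change of Prmt1 was −0.24 and −0.37.

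**Figure D4:**
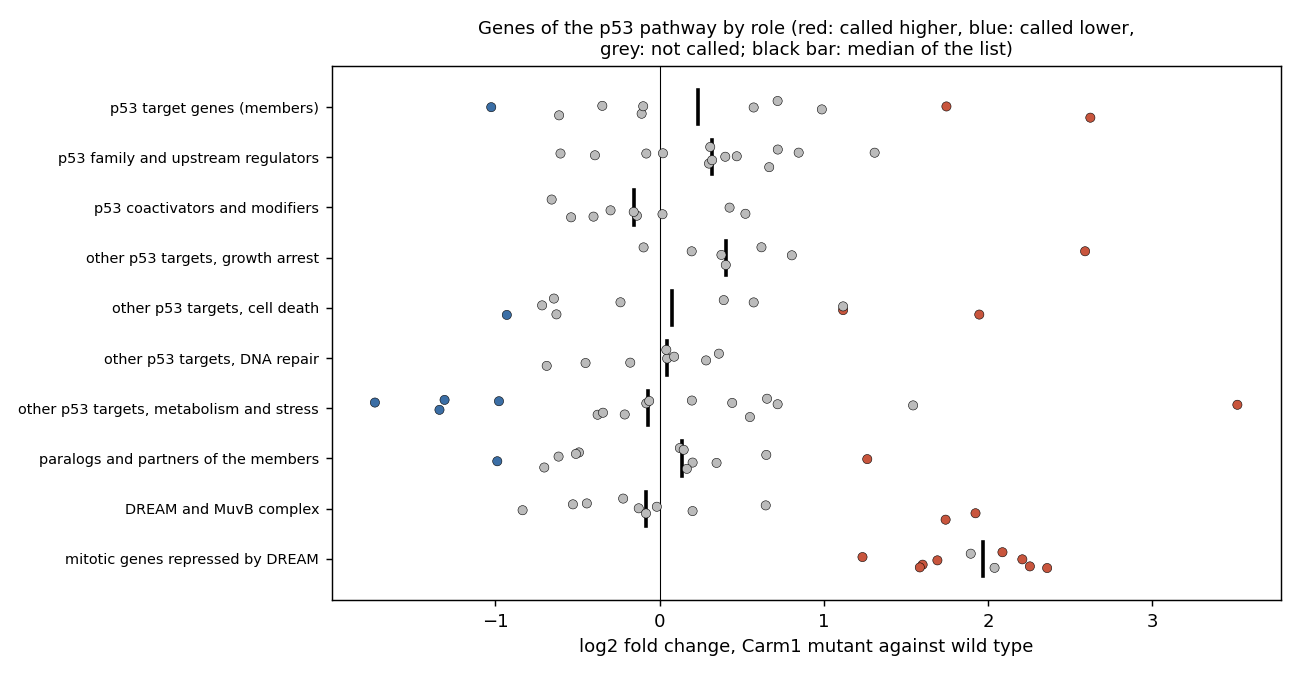
Log2 fold change of tested genes in each list of the p53 pathway, with genes called higher in red, called lower in blue, not called in grey and the median of each list as a black bar. The list of mitotic genes stands at a median of 1.97, while the medians of the members (0.24) and of the 4 lists of other targets, from −0.07 to 0.40, lie closer to 0.

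Relatives and partners of the members gave 1 higher and 1 lower call of 12 tested (8.33% each, against 2.79% and 4.58% of all genes tested). Bcl2, the inhibitor of apoptosis that opposes Bax, had 6.29 and 6.33 CPM in wild type against 13.6 and 16.8 CPM in the mutant-labelled libraries (log2 fold change 1.26, SE 0.22, edgeR FDR 0.0205, and 0.129 without mutant-labelled replicate 2). Within a library, counts of Bax per count of Bcl2 were 3.06 and 2.61 in wild type against 1.66 and 1.83 in the mutant-labelled libraries. Against Bcl2l1, another inhibitor of apoptosis, the order was the opposite, with 0.235 and 0.191 Bax counts per count in wild type against 0.339 and 0.580 in the mutant-labelled libraries. Trp53inp2, the paralog of Trp53inp1 and a factor of autophagy in muscle, fell, with means of 854 ± 37 and 431 ± 15 CPM (log2 fold change −0.99, SE 0.21, edgeR FDR 0.0356), while Trp53inp1 was not called and had a positive sign. The Trp53inp2 call was lost with library totals alone (edgeR FDR 0.0862), without mutant-labelled replicate 1 (0.469), without mutant-labelled replicate 2 (0.386) and with the replicate number as a block (0.0826).

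Other mitotic genes were listed beside Psrc1 and Gtse1. This list, like the others, was chosen with earlier results of these data known. Of 10 mitotic genes known to be repressed by DREAM, 8 rose by the edgeR test (80%, against 2.79% of all genes tested). None fell, where 4.58% of all genes tested did. The median log2 fold change of the list was 1.97, with a range from 1.24 to 2.36. Psrc1 lay above that range and Gtse1 inside it. Ccnb1 (cyclin B1), for example, had 16 and 27 counts in wild type against 147 and 82 in the mutant-labelled libraries (log2 fold change 2.36, edgeR FDR 0.0120), and the mitotic kinase Cdk1 had a log2 fold change of 2.09 (edgeR FDR 0.0120). Ccna2 (cyclin A2) and Birc5 (survivin) rose by 2.25 and 2.21 (edgeR FDR 0.00624 and 0.00847). Among 11 genes of DREAM and the activating MuvB complexes, 2 rose, Foxm1 (1.74, edgeR FDR 0.0141) and Mybl2 (1.92, edgeR FDR 0.0323, and 0.124 without mutant-labelled replicate 1), both activators of mitotic genes. The 2 higher calls were 18.2% of this list, against 2.79% of all genes tested. The other 9 genes of this list were not called, with log2 fold changes of both signs.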

How the data were processed

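RNA from P14 mouse heart was sequenced in 4 libraries, grouped by genotype label (2 wild type, 2 Carm1 mutant). The authors deposited raw counts per gene, which are whole numbers. The submitters' processing notes name FastQC, mm10 and HISAT2. Their versions, the program that counted reads, its strand setting and its treatment of multi-mapping reads were not given in the sources used here. Columns were matched to samples by title, and 54723 of 54752 identifiers had a symbol in GENCODE M21, on the same assembly. Members and gene lists were chosen with earlier results of these data known.

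Under R 4.3.3, edgeR 4.0.16 filtered the counts (filterByExpr), scaled them (TMM) and fitted a quasi-likelihood model on genotype alone, with 2 residual degrees of freedom and Benjamini-Hochberg adjustment over all 15283 genes tested, at a threshold of 0.05. Standard errors are the log2 fold change divided by the square root of F. Tests and intervals use the total degrees of freedom of the fit, which add information shared across genes to the 2 residual ones. Replicates differed beyond counting error (chi-square over degrees of freedom: wild type 51.1, mutant 11.5). Named genes are the members, Carm1, and from each list up to 4 called genes by adjusted p or else the 2 most abundant; Trp53 was added as the gene behind the set, and Eda, Bcl2l1, Rrm2b, Chek2, Cop1, Pln and Aldh4a1 after their values were seen. Alternatives were other scalings, filters and thresholds, DESeq2 1.42.0, limma-voom (limma 3.58.1), a robust fit, length and GC offsets, thinning, a replicate block and leaving out each library. The code of the fit was run on counts simulated from its own dispersions and library sizes, with planted changes. Such counts lack the length trends and the sex difference of these libraries, so that check does not bear on the results above. Copies of members were sought with BLAST at 90% identity over at least 100 bases. No genome sequence was used, so the p53 consensus was searched in RefSeq promoter windows and not in the wider span planned.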

Additional observations from a re-analysis of the deposited data

How the results depend on the processing

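Psrc1 and Gtse1 kept their direction and call under all 18 alternatives (log2 fold change 2.48 to 3.01 and 1.63 to 2.13), and Ccng1 kept its direction (−1.16 to −0.62). The looser threshold of 0.10, among the 18, could not lose a call. Higher and lower calls are given in that order. Over all genes (426 and 700) they were 1189 and 206 with library totals alone, 1169 and 1461 with no filter on low counts, 1077 and 1411 at an FDR of 0.10, 1158 and 1733 with length and GC offsets, and 591 and 1114 with DESeq2's Wald test; without 1 library they ran from 221 to 2553 and from 156 to 3126. Members called (2 and 1) were 4 and 0 with library totals alone and 4 and 1 with no filter; without 1 library they ran from 2 to 3 and from 0 to 2. Other p53 targets (4 and 5) were 8 and 3 with library totals alone and 7 and 6 with no filter; without 1 library they ran from 3 to 10 and from 1 to 8. A fit without a library leaves 1 sample in a group, assumed to vary like the other group. Signs turned with library totals alone for Cdkn1a (0.043), Mdm2 (0.28), Phlda3 (0.32) and Prmt1 (0.12); without wild type replicate 1 for Phlda3 (0.18) and Prmt1 (0.046); without wild type replicate 2 for Pcna (−0.13); and without mutant-labelled replicate 1 for Phlda3 (0.10) and Ercc5 (−0.044). Leaving out 1 library at a time, these ran from −0.39 to 0.18 for Phlda3, −0.63 to 0.046 for Prmt1, −0.13 to 0.27 for Pcna and −0.044 to 0.11 for Ercc5. The cause was not tested.

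With the replicate block, 2 members were called higher and 0 lower, 4 other p53 targets higher and 4 lower, and 580 and 642 genes in all. The numbers do not pair the samples by design, and deviations of same-numbered libraries correlated at −0.25 across genes. With the numbers crossed, chosen after seeing the data, calls were 5 and 2 for members, 10 and 9 for other p53 targets and 2037 and 2139 for all genes. With the longest transcript as the length, all 10 members kept their wild-type rank, but only 6 their rank in the mutant-labelled libraries. A p53 consensus match without mismatch was found in 0 members in place of 3, and a CHR match in 4 in place of 1 with the variants. Low counts limit Psrc1, Gtse1 and Eda2r, with 11 to 48 counts per wild-type library.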
